A study of Aspergillus niger with 9 samples.

Results

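The mycelium of Aspergillus niger deletion strain ΔaslA was compared with that of deletion strain ΔaslB, using every gene of the deposited table of read counts. The comparison rests on 6 of the 9 libraries of the series, 3 of ΔaslA and 3 of ΔaslB. Of the 11187 genes in the table, 266 had no count in any of these 6 libraries and 9568 passed the filter on low counts and were tested. Both deletion strains were made in the background MA234.1, whose 3 libraries are given beside them as the parent. The genotype of MA234.1 itself, and whether each deletion strain is 1 transformant, are not given in the labels. All libraries are labelled vegetative mycelium from liquid shaken culture in biological triplicate. The labels name a 16 h culture in minimal medium with 25 mM glucose, yeast extract (0.5%) and casamino acids (0.2%), and a 4 h culture in minimal medium with 25 mM xylose, and they do not say which of these a library came from. Total counts were 13954909, 19110786 and 13274592 for ΔaslA replicates 1 to 3 and 13199221, 15068386 and 12223991 for ΔaslB replicates 1 to 3.

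The series title places aslA and aslB among genes that act with the developmental regulator FlbA. FlbA is a regulator of G protein signalling: it promotes the switch of an aspergillus hypha from growth to spore formation and affects which enzymes are secreted. A. niger feeds by secreting enzymes that cut starch, inulin, xylan and pectin, taking up the sugars that are set free through transporters of the major facilitator family. Its genome also carries many clusters of neighbouring genes for secondary metabolites. Comparing the deletion strains asks which transcripts differ between the loss of one gene and the loss of the other. No gene in the deposited annotation is paired with the name aslA or aslB, so the deletions were not checked by name.

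The 3 ΔaslB libraries did not behave as 1 group. Across genes, the library labelled ΔaslB replicate 3 correlated with the ΔaslA libraries at r = 0.967 to 0.984, replicate 1 at 0.922 to 0.941, and replicate 2 at 0.777 to 0.798. These correlations are over genes, which are not independent replicates. The median standard deviation of a gene over 3 libraries was 0.254 on the log2 CPM scale in ΔaslA and 0.619 in ΔaslB, against 0.125 in MA234.1. CPM is the count of a gene scaled to the total of its library (TMM scaling). Within ΔaslA, replicate 2 stood apart from replicates 1 and 3. Which libraries hold the cells their labels name was not tested, and the results below are given with each ΔaslB library shown singly.

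Each library was set against the ΔaslA libraries by counting the genes at which it lay 2-fold or more outside their range. The library labelled ΔaslB replicate 1 lay above the range at 756 genes (7.9%) and below it at 381 (3.98%). Replicate 2 lay above at 1889 genes (19.7%) and below at 1305 (13.6%). Replicate 3 lay above at only 68 genes (0.711%) and below at 154 (1.61%). As a yardstick, each ΔaslA library was set against the other 2 by the same rule, which put replicates 1, 2 and 3 outside at 143, 813 and 151 genes. Against pairs of ΔaslA libraries, ΔaslB replicate 3 lay outside at 326 to 363 genes, replicate 1 at 1283 to 1446 and replicate 2 at 3350 to 3680. By this count the library labelled ΔaslB replicate 3 was nearer to ΔaslA than ΔaslA replicate 2 was to its own replicates.

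**Figure D1:**
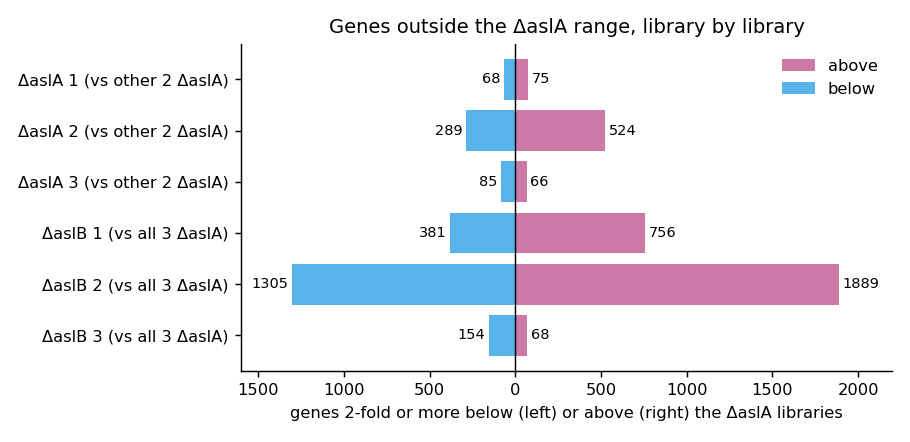
Number of genes (horizontal axis) at which a library lay 2-fold or more above (right) or below (left) the ΔaslA libraries, for each ΔaslA library against the other 2 and each ΔaslB library against all 3. ΔaslB replicate 2 has the longest bars, at 1889 and 1305 genes, and ΔaslB replicate 3 the shortest of its strain, at 68 and 154.

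**Figure D2:**
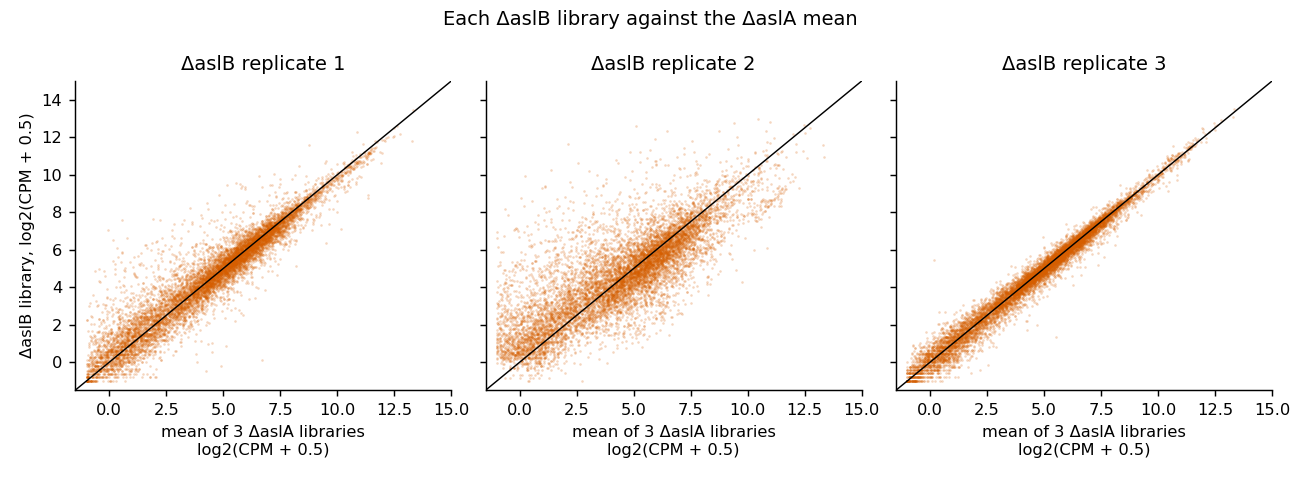
Each panel plots 1 ΔaslB library (vertical axis) against the mean of the 3 ΔaslA libraries (horizontal axis), both as log2(CPM + 0.5), with 1 point per tested gene and a line of equality. The points hug the line for replicate 3, spread mostly above it at low levels for replicate 1, and scatter widely on both sides for replicate 2.

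With all libraries in the fit, edgeR's quasi-likelihood test called no gene between ΔaslA and ΔaslB: 0 of 9568 genes (0%) had an adjusted p under 0.05. The smallest adjusted p was 0.142, and 1651 genes had an unadjusted p under 0.05. On the same libraries limma-voom called 0 genes, while DESeq2 called 553, with 45 up (0.489%) and 508 down (5.52%) in ΔaslA among 9197 genes with an adjusted p. The count also turned on single ΔaslB libraries. When ΔaslB replicate 2 was left out, 28 genes passed as higher in ΔaslA (0.29%) and 29 as lower (0.3%). When replicate 3 was left out, 208 passed as higher (2.14%) and 1074 as lower (11%). With the deletion strains alone, without MA234.1, these fits called 0 and 119 genes. Leaving out ΔaslB replicate 1, or any library of ΔaslA or MA234.1, gave 0 calls each time. A lack of calls with all 3 ΔaslB libraries is therefore no measure of how alike the strains are.

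As a description that needs no test, genes were counted at which every ΔaslA library lay on 1 side of every ΔaslB library. At 644 genes (6.73%) ΔaslA was the higher and at 859 (8.98%) it was the lower, and such genes are called wholly higher or wholly lower. The gap between the nearest libraries was mostly small, with a median of 0.11 on the log2 CPM scale for the genes higher in ΔaslA and 0.22 for those lower. It reached 2-fold or more at 3 genes higher in ΔaslA and 39 lower in ΔaslA. At the genes lower in ΔaslA, ΔaslB replicate 3 was the library nearest to ΔaslA in 628 of 859 and replicate 2 the farthest in 615. At those higher in ΔaslA, replicate 3 was nearest in 370 of 644 and replicate 2 farthest in 400. No gene was at 3 counts or fewer in every library of one strain and at 5 CPM or more in every library of the other.

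The widest gap of all belonged to ATCC64974_80420 (contig 13, 2178408 to 2179452, plus strand), whose closest SwissProt protein is GLIS3, a zinc finger transcription factor of the mouse. It stood at 0.222, 1.74 and 0.389 CPM in the ΔaslA libraries and 92.6, 321 and 42.6 CPM in those of ΔaslB, against 508 to 534 CPM in MA234.1. Every ΔaslB library thus lay above every ΔaslA library, by 22.7-fold at the nearest pair with the prior count added, and below every MA234.1 library. ΔaslA over ΔaslB, the fitted log2 fold change was -7.51 (SE 1.02, edgeR adjusted p = 0.142). The gene was called lower in ΔaslA without ΔaslB replicate 2 (edgeR adjusted p = 0.0103) and without replicate 3 (adjusted p = 0.00161). Over its 18 alternatives the adjusted p ran from 1.12e-16 to 0.487. Whether this gene is one of the deleted genes was not tested.

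Several of the next widest gaps were at genes of starch and inulin use, all lower in ΔaslA. The exo-inulinase gene inuE (ATCC64974_34960, contig 5, 622403 to 624077), whose product releases fructose from inulin, stood at 0.888, 0.685 and 0.855 CPM in ΔaslA and 47.6, 111 and 5.9 CPM in the ΔaslB libraries in order of replicate, against 245 to 272 CPM in MA234.1. Acid alpha-amylase (ATCC64974_89550, contig 16, 880939 to 883304), which cuts starch chains internally, stood at 1.63, 0.79 and 0.933 CPM in ΔaslA and 23.2, 175 and 5.82 CPM in ΔaslB. Both genes had their lowest ΔaslB value in replicate 3 and their highest in replicate 2, with no overlap between the strains. Glucoamylase (GLAA, ATCC64974_75950, contig 13, 678235 to 680407), which releases glucose from the ends of starch, stood at 69, 53.9 and 61.1 CPM in ΔaslA and 602, 1732 and 168 CPM in ΔaslB, against 3661 to 3723 CPM in MA234.1. The alpha-glucosidase gene aglA (ATCC64974_81710) stood at 356, 262 and 348 CPM in ΔaslA and 1414, 2222 and 705 CPM in ΔaslB. The order of the libraries was again ΔaslA, ΔaslB replicate 3, replicate 1, replicate 2 and MA234.1. The log2 fold changes of these genes were -6.08 (SE 0.95) for inuE, -5.93 (SE 1.18) for acid alpha-amylase, -3.76 (SE 0.72) for glucoamylase and -2.17 (SE 0.40) for aglA, each with an edgeR adjusted p of 0.142.

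Of the 14 genes of the starch list, edgeR called none with all libraries. DESeq2 called 5 lower and 0 higher among 13 with an adjusted p, where 5.52% and 0.489% of all genes were so called. Of the 14, 6 lay wholly lower and 2 wholly higher in ΔaslA, where 8.98% and 6.73% of all genes did so. The median log2 fold change was -1.11, where the median over all genes tested was -0.02. Without ΔaslB replicate 2, 3 of the 14 were called lower and 0 higher, and without replicate 3, 6 were called lower and 0 higher. In these fits 0.3% and 11% of all genes were called lower. Set singly, the mean log2 CPM of the list stood 1.09, 1.82 and 0.35 above the ΔaslA mean in ΔaslB replicates 1, 2 and 3, and 1.7 to 1.8 above it in MA234.1. The list was thus the one group of extracellular hydrolases at which ΔaslB replicate 1 stood more than 2-fold above ΔaslA on average.

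**Figure D3:**
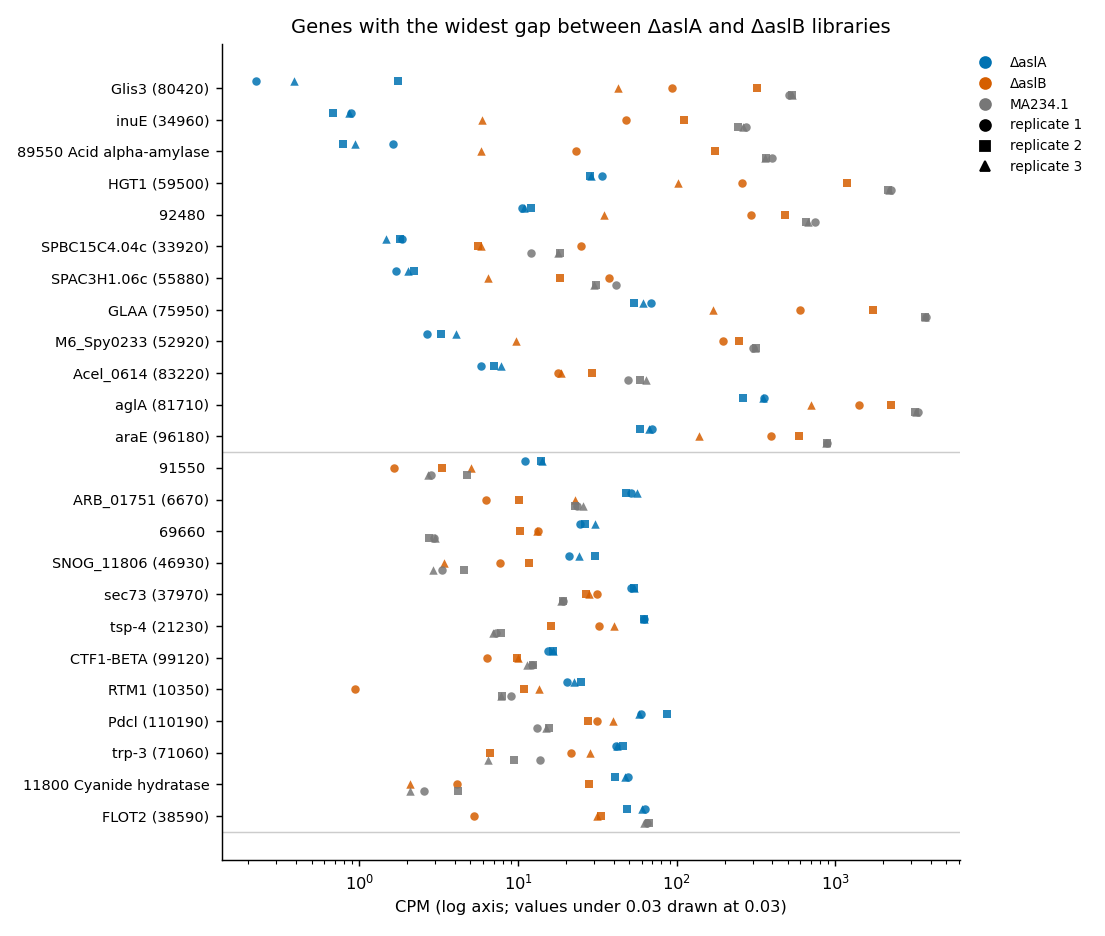
CPM (log axis) of the genes with the widest gap between the strains in every library of ΔaslA (blue), ΔaslB (orange) and MA234.1 (grey), with marker shape for the replicate. In the upper block, where ΔaslA is the lower strain, the ΔaslB points spread widely between ΔaslA and MA234.1 for most genes, while in the lower block, where ΔaslA is the higher, the gaps are narrow.

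Transporter genes followed. HGT1 (ATCC64974_59500, contig 8, 197397 to 199216), closest to a high-affinity glucose transporter of Kluyveromyces lactis, stood at 33.6, 28.3 and 28.6 CPM in ΔaslA and 259, 1184 and 102 CPM in ΔaslB, against 2155 to 2236 CPM in MA234.1. For HGT1 the log2 fold change was -4.09 (SE 0.80) at an edgeR adjusted p of 0.142. The gene closest to araE, an arabinose-proton symporter of Escherichia coli (ATCC64974_96180), stood at 69.8, 58.5 and 67.1 CPM in ΔaslA and 391, 592 and 138 CPM in ΔaslB. A pair of less characterised transporters behaved differently. SPAC3H1.06c (ATCC64974_55880) stood at 1.7, 2.21 and 2.02 CPM in ΔaslA and 37.4, 18.3 and 6.48 CPM in ΔaslB, and the amino-acid permease SPBC15C4.04c (ATCC64974_33920) at 1.85, 1.79 and 1.48 CPM in ΔaslA and 24.9, 5.58 and 5.82 CPM in ΔaslB. In both genes replicate 1, not replicate 2, was the highest ΔaslB library. MA234.1 stood at 30 to 41.2 CPM for the first of them and at 12 to 18.3 CPM for the permease.

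Among 190 sugar transporters of the major facilitator family, 32 lay wholly lower in ΔaslA and 1 wholly higher, with a median log2 fold change of -0.77. The shares over all genes were 8.98% and 6.73%. Singly, ΔaslB replicate 1 stood 2-fold or more above ΔaslA at 53 of them, replicate 2 at 92 and replicate 3 at 3. Of all genes, 7.9%, 19.7% and 0.711% did so in replicates 1, 2 and 3. In the fit without ΔaslB replicate 2, in which 0.3% of all genes were called lower, 3 of 197 measured sugar transporters were called lower and 0 higher. Without replicate 3, where that share was 11%, 60 of 198 were called lower and 3 higher. Amino acid and peptide transporters lay wholly lower in ΔaslA at 11 of 44 genes and wholly higher at 2. Their mean log2 CPM stood 0.92 and 0.89 above ΔaslA in ΔaslB replicates 1 and 2 and 0.22 above it in replicate 3. The peptide transporter gene PTR2 (ATCC64974_40000) showed that order, at 299, 248 and 308 CPM in ΔaslA and 1002, 680 and 272 CPM in ΔaslB, where replicate 3 fell inside the ΔaslA range. The glucose transporter gene rco-3 (ATCC64974_29780) stood at 2157, 1403 and 2147 CPM in ΔaslA and 5056, 3477 and 1714 CPM in ΔaslB, again with replicate 1 the highest.

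In the list of xylan and cellulose degradation, 13 of 47 genes lay wholly lower in ΔaslA and 1 wholly higher (median log2 fold change -0.73). The shares over all genes were 8.98% and 6.73%. The mean log2 CPM of the list stood 0.49, 1.92 and 0.11 above ΔaslA in ΔaslB replicates 1, 2 and 3. Outside the list, the endoglucanase-like gene Acel_0614 (ATCC64974_83220, contig 14, 258444 to 259757) had the tightest ΔaslB values of the 12 genes with the widest gaps lower in ΔaslA, at 5.84, 7.06 and 7.85 CPM in ΔaslA and 17.7, 29.2 and 18.7 CPM in ΔaslB, against 49.2 to 63.9 CPM in MA234.1. Its log2 fold change was -1.66 (SE 0.26, edgeR adjusted p = 0.142). In the list, the arabinofuranosidase gene abfA (ATCC64974_64080), whose product removes arabinose side chains, stood at 7.69, 5.27 and 5.83 CPM in ΔaslA and 17.6, 54 and 13.3 CPM in ΔaslB. The alpha-xylosidase gene axlA (ATCC64974_10330) stood at 26.8, 23 and 27.4 CPM in ΔaslA and 72.6, 149 and 44.7 CPM in ΔaslB. All 3 genes were called lower in ΔaslA by edgeR both without ΔaslB replicate 2 and without replicate 3, but not when those fits held the deletion strains alone, and limma-voom called them without replicate 3 and not without replicate 2. For the list as a whole the edgeR fits with MA234.1 called 2 of 47 and 18 of 48 genes lower, and 0 higher in either. In these fits 0.3% and 11% of all genes were called lower.

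Other genes with a gap of this kind belonged to peroxide removal and self-recognition. The catalase-peroxidase gene katG (ATCC64974_21630, contig 3, 3208539 to 3210828) stood at 63.9, 44.9 and 61.1 CPM in ΔaslA and 679, 1371 and 89.5 CPM in ΔaslB, against 1896 to 2024 CPM in MA234.1 (log2 fold change -3.65, SE 0.79, edgeR adjusted p = 0.147). HET-E1 (ATCC64974_16950), closest to a Podospora protein that triggers cell death when unlike hyphae fuse, stood at 15.9, 12.3 and 12.6 CPM in ΔaslA and 78.6, 63.4 and 26.9 CPM in ΔaslB. Of 43 genes in the list of heterokaryon incompatibility, 12 lay wholly lower and 1 wholly higher in ΔaslA, and of 22 catalases and peroxide-removing enzymes 4 lay wholly lower and 0 higher. Cytochrome P450 enzymes lay wholly lower in ΔaslA at 18 of 93 genes and wholly higher at 2. Over all genes the shares were 8.98% and 6.73%. With all libraries edgeR called none of these genes. DESeq2 called 10 of 41 heterokaryon incompatibility genes, 3 of 21 catalases and 12 of 87 P450 enzymes lower in ΔaslA. katG and HET-E1 were among them. DESeq2 called 0, 0 and 1 higher, where 5.52% of all genes were called lower and 0.489% higher. In edgeR katG and HET-E1 were called lower without ΔaslB replicate 3, and not without replicate 2. A pair of genes without a described function had gaps of the same kind, M6_Spy0233 (ATCC64974_52920) at 2.66, 3.27 and 4.04 CPM in ΔaslA against 197, 246 and 9.64 CPM in ΔaslB, and ATCC64974_92480 at 10.7, 12.1 and 10.9 CPM against 296, 482 and 35 CPM.

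The genes higher in ΔaslA had smaller gaps and unlike functions. ARB_01751 (ATCC64974_6670, contig 1, 2013182 to 2014334), closest to a phospholipid esterase, had the widest described one and stood at 51.4, 47.9 and 55.8 CPM in ΔaslA and 6.27, 10.1 and 22.9 CPM in ΔaslB, for a log2 fold change of 1.99 (SE 0.42) at an edgeR adjusted p of 0.147. The SET domain gene SNOG_11806 (ATCC64974_46930) stood at 20.9, 30.7 and 24.1 CPM in ΔaslA and 7.64, 11.7 and 3.41 CPM in ΔaslB, with replicate 3 the farthest from ΔaslA. SET domains are found in enzymes that methylate lysines. The protein transport gene sec73 (ATCC64974_37970) was the most even, at 51.7, 53.6 and 53.4 CPM in ΔaslA and 31.4, 26.7 and 28.1 CPM in ΔaslB, against 18.7 to 19.2 CPM in MA234.1. Its log2 fold change was 0.88 (SE 0.17, edgeR adjusted p = 0.142). All 3 ΔaslB libraries lay close together for this gene, between ΔaslA and MA234.1.

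The tRNA-splicing endonuclease subunit tsp-4 (ATCC64974_21230) stood at 62.6, 62.6 and 62.5 CPM in ΔaslA and 32.1, 16.1 and 40.1 CPM in ΔaslB. Pdcl (ATCC64974_110190), closest to a rat phosducin-like protein, a class of proteins that bind G protein βγ subunits, stood at 59.6, 86.3 and 57.9 CPM in ΔaslA and 31.2, 27.8 and 39.6 CPM in ΔaslB. In both, MA234.1 stood lower still, at 6.99 to 7.83 CPM and at 13.2 to 15.6 CPM. The Zn2Cys6 regulator CTF1-BETA (ATCC64974_99120), named for an activator of cutinase in Fusarium, stood at 15.4, 16.7 and 16.5 CPM in ΔaslA and 6.42, 9.82 and 9.97 CPM in ΔaslB, and the tryptophan synthase gene trp-3 (ATCC64974_71060) at 41.5, 45.9 and 42.1 CPM against 21.6, 6.61 and 28.4 CPM. The remaining described genes of this group each had 1 or 2 ΔaslB libraries far from the rest. RTM1 (ATCC64974_10350) stood at 20.3, 24.9 and 22.4 CPM in ΔaslA and 0.937, 10.9 and 13.6 CPM in ΔaslB, and FLOT2 (ATCC64974_38590), a flotillin-like membrane protein, at 63.3, 48.4 and 60.6 CPM against 5.26, 33.5 and 31.6 CPM. Replicate 1 was the low library in both. Cyanide hydratase (ATCC64974_11800), which converts cyanide to formamide, stood at 49.5, 40.9 and 47.1 CPM in ΔaslA and 4.11, 28.1 and 2.08 CPM in ΔaslB, with replicate 2 the highest. ATCC64974_91550 and ATCC64974_69660, with no description, stood at 11 to 14.1 and 24.7 to 30.5 CPM in ΔaslA and 1.66 to 5.07 and 10.2 to 13.3 CPM in ΔaslB. Of the 12 genes with the widest gaps in this direction, 8 were called higher in the fit without ΔaslB replicate 3 and 1 in the fit without replicate 2. Of the 12 with the widest gaps in the other direction, 12 and 11 were called lower. Without replicate 3, 2.14% of all genes were called higher and 11% lower, and without replicate 2, 0.29% and 0.3%. Both sets of 12 were picked by their gaps in these same libraries, so their calls are no independent support.

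The deposited annotation assigns genes to secondary metabolite clusters, of which 34 had 5 or more measured genes. No gene lay wholly to 1 side in 12 of them, while 17 held at least 1 gene wholly lower in ΔaslA and 6 at least 1 wholly higher. Over all genes 8.98% lay wholly lower and 6.73% wholly higher, so these counts of clusters are not read as a result about them. The clusters and genes named here were chosen after their values were seen. In cluster 18 (contig 4, 1322317 to 1357829) 6 of 11 genes lay wholly lower in ΔaslA, and the mean log2 CPM of its genes stood 3.15, 3.43 and 0.84 above the ΔaslA mean in ΔaslB replicates 1, 2 and 3. In cluster 74 (contig 17, 4396072 to 4434062) 5 of 7 lay wholly lower, and those differences were 4.40, 4.22 and 0.90. In both clusters replicate 1 stood near replicate 2. Cluster 74 holds stcF (ATCC64974_109720), closest to a P450 enzyme of sterigmatocystin synthesis, at 13.1, 17 and 17.8 CPM in ΔaslA and 233, 273 and 31.3 CPM in ΔaslB, against 309 to 332 CPM in MA234.1. The same cluster holds gst2 (ATCC64974_109680), a glutathione S-transferase gene, at 18.7, 22.6 and 16.3 CPM in ΔaslA and 356, 420 and 39.4 CPM in ΔaslB. Their log2 fold changes were -3.49 (SE 0.67) and -3.82 (SE 0.72), each with an edgeR adjusted p of 0.142.

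Cluster 18 holds a polyketide synthase gene closest to lovF (ATCC64974_30970), at 0.222, 0.474 and 0.622 CPM in ΔaslA and 14.7, 32.8 and 0.582 CPM in ΔaslB. Here ΔaslB replicate 3 fell inside the ΔaslA range. The monooxygenase gene dhpH (ATCC64974_30930) stood at 3.92, 1.95 and 2.18 CPM in ΔaslA and 77, 44.8 and 4.57 CPM in ΔaslB, and ATCC64974_30950, with no description, at 0.148, 0 and 0.311 CPM against 28.4, 30 and 1.16 CPM. The alcohol oxidase gene AOD1 (ATCC64974_30910), just outside the cluster, stood at 45.5, 43.8 and 44 CPM in ΔaslA and 342, 526 and 74.1 CPM in ΔaslB. It belonged to a run of 6 adjacent genes (1319800 to 1333174) that all lay wholly lower in ΔaslA. In all, 33 runs of 3 or more adjacent measured genes lay wholly to 1 side, 22 lower and 11 higher in ΔaslA. The longest had 7 genes (contig 7, 105597 to 122281, lower in ΔaslA). Over all genes 8.98% lay wholly lower and 6.73% wholly higher. How many runs these shares would give was not tested, so the count of runs is not read as a result about neighbouring genes.

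Cluster 62 (contig 16, 971199 to 984869) ran the other way, with 4 of 5 genes wholly higher in ΔaslA. Its mean log2 CPM stood at -1.40, -0.49 and -0.51 relative to the ΔaslA mean in ΔaslB replicates 1, 2 and 3. uaY (ATCC64974_89820), closest to a regulator of purine use, stood at 106, 113 and 101 CPM in ΔaslA and 42.7, 44.2 and 86.8 CPM in ΔaslB, against 44.3 to 50.2 CPM in MA234.1. The oxidoreductase gene ARB_07056 (ATCC64974_89850) stood at 119, 126 and 128 CPM in ΔaslA and 28.9, 103 and 76.9 CPM in ΔaslB, and the dehydrogenase gene CAD (ATCC64974_89810) at 91.6, 71.5 and 96.9 CPM against 15.4, 48.6 and 64.5 CPM. In the last pair of genes replicate 1 was the lowest library of ΔaslB.

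The lists of ribosome, translation and acetate genes set ΔaslB replicate 2 apart from replicates 1 and 3. Replicate 2 stood 2-fold or more below every ΔaslA library at 66 of 69 cytosolic ribosomal proteins, 49 of 56 mitochondrial ribosomal proteins, 36 of 38 ribosome biogenesis genes and 34 of 42 translation factors. Replicates 1 and 3 did so at 0 of the 69, 0 of the 56 and 0 of the 38, and at 1 and 0 of the 42. Of all genes, 3.98%, 13.6% and 1.61% lay so far below ΔaslA in replicates 1, 2 and 3. The mean log2 CPM of the cytosolic ribosomal list stood at -0.22, -2.37 and 0.16 relative to ΔaslA in ΔaslB replicates 1, 2 and 3. In MA234.1 it stood at -2.51 to -2.39. In bulk RNA, fewer cells of a kind and less RNA per cell cannot be told apart. The 60S protein gene crp-74 (ATCC64974_103280) was typical, at 4638, 5023 and 4788 CPM in ΔaslA and 4101, 636 and 5057 CPM in ΔaslB, against 620 to 643 CPM in MA234.1. nop56 (ATCC64974_70590), which guides rRNA modification, stood at 454, 414 and 459 CPM in ΔaslA and 352, 28.6 and 441 CPM in ΔaslB, and MNP1 (ATCC64974_82060), a mitochondrial ribosomal protein gene, at 196, 211 and 209 CPM against 170, 49.1 and 177 CPM. In all 3 genes replicate 2 was the one ΔaslB library far from ΔaslA, and it stood near MA234.1. The MA234.1 libraries were at 25.5 to 31.5 CPM for nop56 and 45.3 to 46.6 CPM for MNP1.

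The list for the glyoxylate cycle and gluconeogenesis, which make sugar from acetyl-CoA, went the other way in the same library. Its mean log2 CPM stood at -0.16, 3.01 and -0.01 relative to ΔaslA in ΔaslB replicates 1, 2 and 3, and 3.4 to 3.5 above ΔaslA in MA234.1. Its text pattern also took in LEU4 (ATCC64974_12920), a 2-isopropylmalate synthase gene that is in the amino acid biosynthesis list too. LEU4 stood at 416, 404 and 413 CPM in ΔaslA and 294, 278 and 369 CPM in ΔaslB. facA (ATCC64974_80800), which activates acetate, stood at 215, 154 and 208 CPM in ΔaslA and 413 and 3606 CPM in ΔaslB replicates 1 and 2, with replicate 3 just above the ΔaslA range. The list of beta-oxidation, carnitine and peroxisome genes had 16 of 56 members wholly lower in ΔaslA and 0 wholly higher. The thiolase gene POT1 (ATCC64974_80890) of peroxisomal fatty acid breakdown stood at 107, 82.4 and 107 CPM in ΔaslA and 149, 264 and 134 CPM in ΔaslB. Among secreted peptidases 6 of 30 lay wholly lower in ΔaslA, sed4 (ATCC64974_96730), a tripeptidyl-peptidase gene, at 15.1, 11 and 14.6 CPM in ΔaslA and 23.5, 376 and 17.7 CPM in ΔaslB. Of 31 pectin genes 4 lay wholly lower and 2 wholly higher, near the shares over all genes (8.98% and 6.73%), and of 20 pentose catabolic genes 6 lay wholly lower and 0 higher. Without ΔaslB replicate 3, 3 of 32 pectin and 7 of 20 pentose genes were called lower and 2 and 1 higher, and without replicate 2 none of either list was called. Of all genes, 11% were called lower and 2.14% higher without replicate 3.

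**Figure D4:**
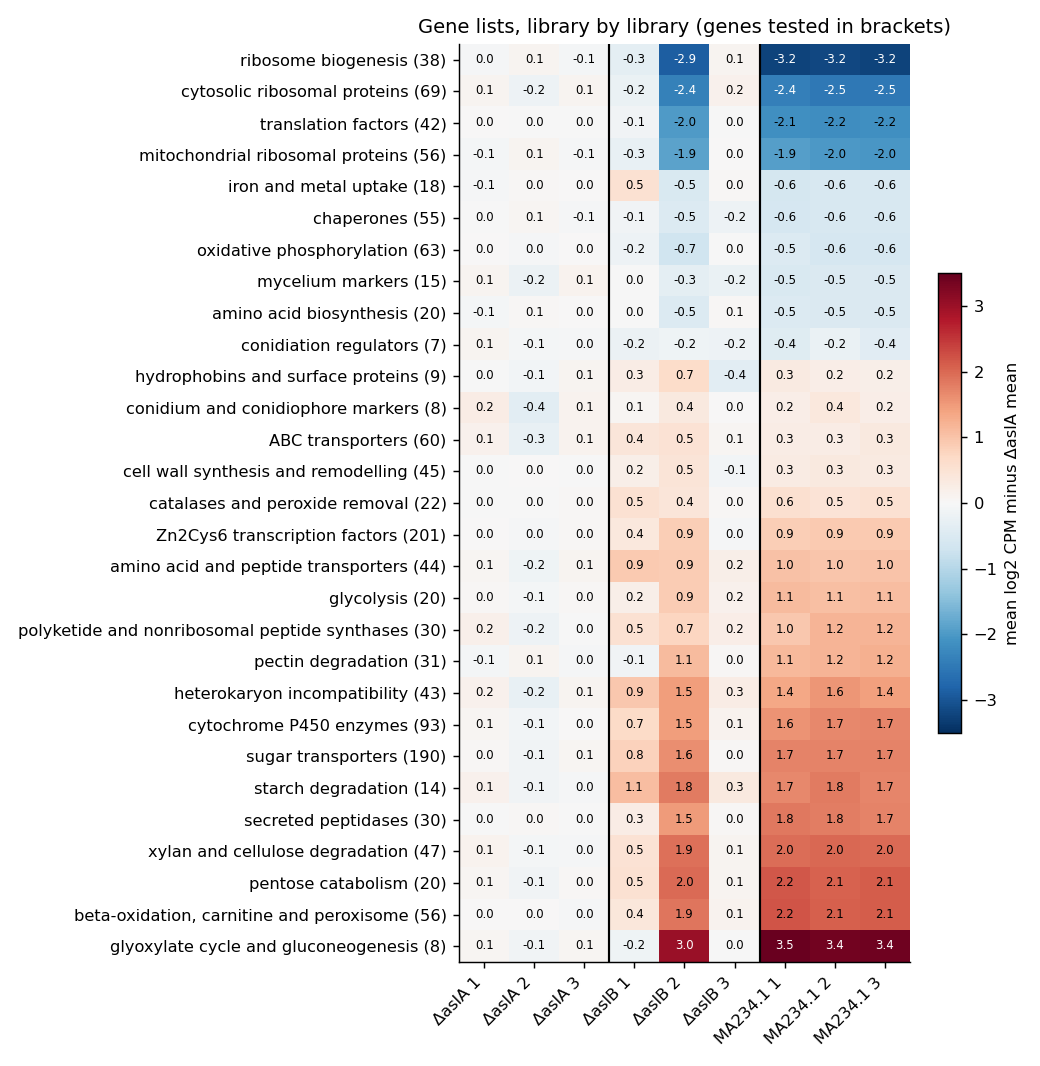
Mean log2 CPM of each gene list in each library minus its mean over the ΔaslA libraries, with ΔaslA at the left, ΔaslB in the middle and MA234.1 at the right, and the number of tested genes in brackets. ΔaslB replicate 3 is near 0 in most lists, replicate 2 resembles the MA234.1 columns in sign, and replicate 1 is raised at starch genes, transporters and heterokaryon incompatibility genes while near 0 at ribosomal lists.

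On the mean of the list of iron and metal uptake, ΔaslB replicate 1 went opposite to replicate 2, though not at every member. The siderophore transporter gene mirB (ATCC64974_47620) stood at 123, 119 and 122 CPM in ΔaslA and 380, 8.13 and 141 CPM in ΔaslB, against 7.29 to 10.7 CPM in MA234.1. The log2 fold change of mirB was -0.54 (SE 0.91, edgeR adjusted p = 0.768), although 2 of its 3 ΔaslB libraries lay more than 3-fold from ΔaslA in opposite directions. The mean log2 CPM of the 18 iron and metal uptake genes stood at 0.54, -0.53 and 0.04 relative to ΔaslA in ΔaslB replicates 1, 2 and 3. Of the 18, replicate 1 lay 2-fold or more above every ΔaslA library at 4 and below at 1, and replicate 2 above at 1 and below at 4. Over all genes, replicate 1 lay above at 7.9% and below at 3.98%, and replicate 2 above at 19.7% and below at 13.6%. The members str3 (ATCC64974_25700) and FRE3 (ATCC64974_57440) were raised in both. str3 stood at 13.8, 15 and 14.2 CPM in ΔaslA and 26.5, 43.1 and 15.4 CPM in ΔaslB, and FRE3 at 19.4, 14.6 and 18 CPM against 24.7, 36.9 and 27.8 CPM.

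With ΔaslB replicate 2 left out, the genes called higher in ΔaslA included heat-shock proteins. That fit held MA234.1, and with the deletion strains alone it called 0 genes. hsp98 (ATCC64974_12770), a chaperone that pulls apart protein aggregates, stood at 1801, 1927 and 1805 CPM in ΔaslA and 907, 1717 and 1021 CPM in ΔaslB, against 1547 to 1622 CPM in MA234.1. Its log2 fold change was 0.60 (SE 0.28, edgeR adjusted p = 0.308) with all libraries and 0.94 (edgeR adjusted p = 0.0238) without replicate 2, and the adjusted p ran from 0.0238 to 0.923 over its 18 alternatives. The mitochondrial chaperone gene hsp78 (ATCC64974_103690) stood at 446, 350 and 434 CPM in ΔaslA and 196, 439 and 231 CPM in ΔaslB. Of 2 small heat-shock genes named hsp30, whose reads may be shared, ATCC64974_106570 stood at 1237, 1658 and 1287 CPM in ΔaslA and 567, 1106 and 569 CPM in ΔaslB, and ATCC64974_111310 at 1249, 1416 and 1237 CPM against 550, 1340 and 665 CPM. In these 4 genes ΔaslB replicates 1 and 3 were low together while ΔaslB replicate 2 and MA234.1 were at or near the ΔaslA level. They were the 4 of 56 measured chaperones called higher in that fit, in which 0 were called lower. Of all genes, 0.29% were called higher and 0.3% lower in it. With all libraries 12 of 55 chaperones lay wholly higher in ΔaslA and 3 wholly lower, where the shares over all genes were 6.73% and 8.98%.

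The regulator of proteasome genes RPN4 (ATCC64974_101050) shared this pattern, at 1573, 2320 and 1617 CPM in ΔaslA and 714, 2513 and 841 CPM in ΔaslB. The membrane protein gene pun1 (ATCC64974_49570) had the same order among the ΔaslB libraries, at 549, 735 and 568 CPM in ΔaslA and 233.5, 814 and 231 CPM in ΔaslB, but MA234.1 stood below ΔaslA, at 333 to 348 CPM. For both genes replicate 2 lay above every ΔaslA library, so that the ΔaslB libraries stood on both sides of ΔaslA. The copper-transporting ATPase gene HMA5 (ATCC64974_55550) did not share that feature, at 91.9, 102 and 95.1 CPM in ΔaslA and 44.5, 70.4 and 40.8 CPM in ΔaslB. CAF120 (ATCC64974_19760), a subunit of the CCR4-NOT complex that shortens mRNA tails, stood at 229, 212 and 248 CPM in ΔaslA and 122, 152 and 111 CPM in ΔaslB. All 3 ΔaslB libraries of this pair lay below all ΔaslA libraries. Of the 28 genes called higher without replicate 2, that library itself lay below all ΔaslA libraries at 9, within their range at 4 and above it at 15. Of the 29 called lower it lay above all ΔaslA libraries at 28. The same ΔaslA libraries enter the call and this count. Among those 29 was sol5 (ATCC64974_44920), closest to a gene of solanapyrone synthesis, at 38.3, 40.8 and 37.5 CPM in ΔaslA and 258, 56.7 and 82.6 CPM in ΔaslB.

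With ΔaslB replicate 3 left out, the described genes called higher in ΔaslA included several at which that library was at or near the ΔaslA level. That fit held MA234.1, and with the deletion strains alone it called 5 genes higher. The cell wall glucanosyltransferase gene gel4 (ATCC64974_68420, contig 10, 1808707 to 1810502), which lengthens beta-1,3-glucan, stood at 33.8, 35.5 and 33.3 CPM in ΔaslA and 1.3, 1.94 and 30.8 CPM in ΔaslB, against 1.65 to 2.61 CPM in MA234.1. Its log2 fold change was 1.60 (SE 0.99, edgeR adjusted p = 0.44) with all libraries and 4.39 (edgeR adjusted p = 0.000379) without replicate 3, and the adjusted p ran from 0.000379 to 0.789 over its 17 alternatives. The rhamnogalacturonase gene rhgB (ATCC64974_3630), for pectin, stood at 37.1, 37.2 and 44.2 CPM in ΔaslA and 6.34, 10.5 and 45.1 CPM in ΔaslB. A terpene synthase gene closest to ophiobolin F synthase (ATCC64974_96520) stood at 138, 128 and 134 CPM in ΔaslA and 34.9, 5.76 and 154 CPM in ΔaslB, and the alternative NADH dehydrogenase gene NDB1 (ATCC64974_13350) at 200, 376 and 191 CPM against 86.9, 42.6 and 240 CPM. In each of these genes replicates 1 and 2 were low and replicate 3 was within or just beside the ΔaslA range. The isochorismatase-family gene HVO_2328 (ATCC64974_95410) had the same form, at 48, 122 and 50.2 CPM in ΔaslA and 17.9, 15.3 and 51.9 CPM in ΔaslB.

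Some genes called lower in ΔaslA without ΔaslB replicate 3 were far higher in replicate 2 than in the other ΔaslB libraries. The amino acid transporter gene mtr (ATCC64974_67350) stood at 0.148, 0.211 and 0.0777 CPM in ΔaslA and 0.721, 287 and 0.166 CPM in ΔaslB, and the quinate permease gene qutD (ATCC64974_110460) at 0.592, 0.527 and 0.466 CPM against 9.73, 433 and 0.914 CPM. The ΔaslA values of mtr rest on single counts to a few counts, so no fold is given for it. At 519 of the 1074 genes called lower, replicate 3 also lay above every ΔaslA library, at 389 it lay within their range and at 166 below it. The same ΔaslA libraries enter the call and these counts, so the counts are no independent support for the calls.

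**Figure D5:**
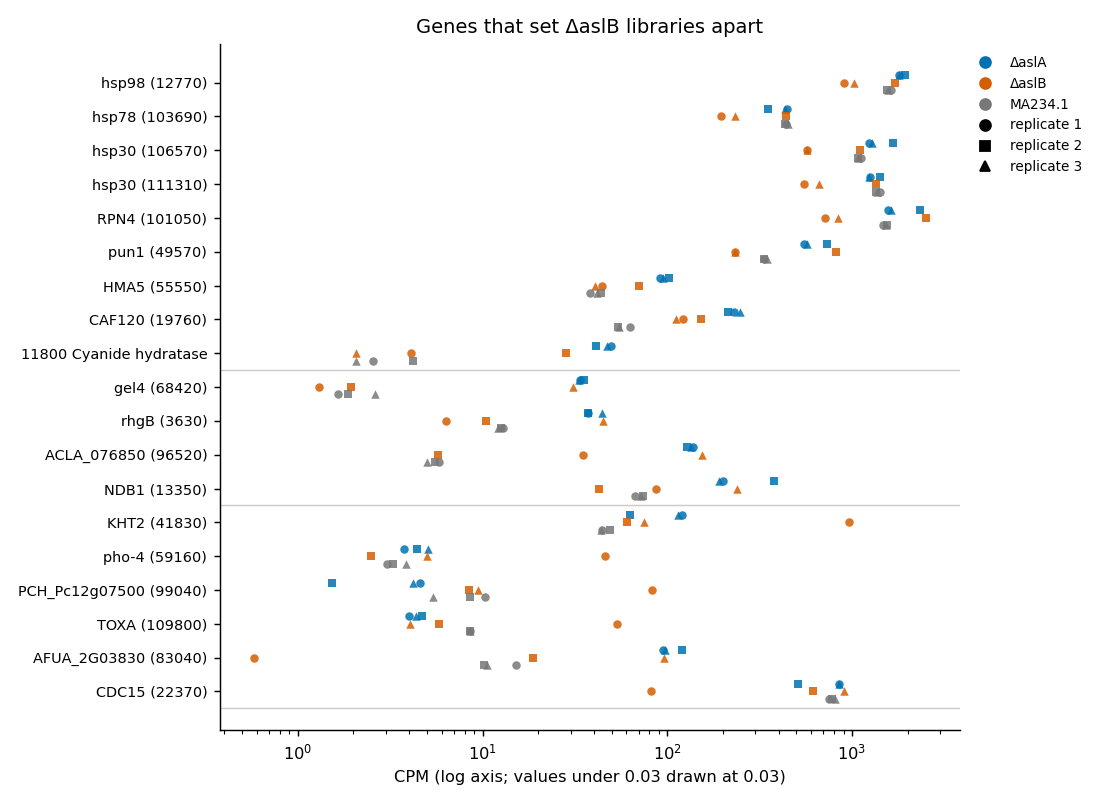
CPM (log axis) in every library of ΔaslA (blue), ΔaslB (orange) and MA234.1 (grey) for genes that set single ΔaslB libraries apart, with marker shape for the replicate. In the top block ΔaslB replicates 1 and 3 are low and replicate 2 is near or above ΔaslA for most genes. In the middle block replicate 3 alone is at the ΔaslA level, and in the bottom block replicate 1 is the ΔaslB library farthest from ΔaslA.

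Regulators were looked up by symbol, and edgeR called none with all libraries, while DESeq2 called stuA, both xlnR genes and 1 prtT gene (ATCC64974_55510) lower in ΔaslA. flbA (ATCC64974_61450) stood at 24.7, 21.4 and 28.2 CPM in ΔaslA, a range that 1 of the ΔaslB libraries shared. Its log2 fold change was 0.01 (SE 0.26, edgeR adjusted p = 0.993). stuA (ATCC64974_38800), a regulator of cell pattern in the conidiophore, was the one conidiation regulator of 7 that lay wholly lower in ΔaslA, at 74, 81.4 and 69.3 CPM against 163, 246 and 93.9 CPM in ΔaslB (log2 fold change -1.16, SE 0.31, edgeR adjusted p = 0.162). abaA (ATCC64974_20070), which acts in the middle of conidiophore development, was the one that lay wholly higher, at 18.4, 21.7 and 16.9 CPM in ΔaslA and 9.88, 2.85 and 12.3 CPM in ΔaslB. fluG (ATCC64974_2970), which starts conidiation, stood at 323, 313 and 344 CPM in ΔaslA and 194, 66.8 and 347 CPM in ΔaslB, and wetA (ATCC64974_16190), for spore maturation, at 21.4, 30.7 and 22.1 CPM against 11.5, 28 and 16.3 CPM. In both of these the strains overlapped. Of 5 genes named prtT, after an activator of protease genes, the one matched to A. niger (ATCC64974_81730) stood at 58.5, 63.4 and 52.2 CPM in ΔaslA and 41.4, 221 and 57.5 CPM in ΔaslB, which overlapped, and ATCC64974_29590 stood at 0.444, 1 and 0.544 CPM in ΔaslA and 1.23, 42.8 and 0.499 CPM in ΔaslB. Both genes closest to xlnR, the activator of xylanase genes (ATCC64974_91960 and ATCC64974_28320), were called lower in ΔaslA by edgeR without ΔaslB replicate 3 and not without replicate 2. Of 201 Zn2Cys6 transcription factors 24 lay wholly lower in ΔaslA and 6 wholly higher, where the shares over all genes were 8.98% and 6.73%, among the lower ones YJL206C (ATCC64974_10700) at 4.88, 3.69 and 4.2 CPM against 14.8, 73.4 and 9.31 CPM in ΔaslB.

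The label of vegetative mycelium was checked against markers of mycelium and of spore-bearing structures. Of 16 mycelial markers, 15 had counts in every library, and their summed level was 18685 to 25440 CPM in ΔaslA and 11526 to 24250 CPM in ΔaslB, against 13348 to 13672 CPM in MA234.1. The low ΔaslB value was that of replicate 2, and it followed tef1 (ATCC64974_107900), the translation elongation factor gene, at 11551, 8272 and 11693 CPM in ΔaslA and 11288, 1984 and 11770 CPM in ΔaslB. The 10 markers of conidia and conidiophores summed to 81.5 to 88.1 CPM in ΔaslA and 75.6 to 104 CPM in ΔaslB, against 117 to 123 CPM in MA234.1. Of the 10, 8 had counts in every library, and both dewA genes (ATCC64974_84110 and ATCC64974_84130), for spore-wall hydrophobins, had counts in at most 2 libraries. The part of spore-bearing structures in the differences above was not tested.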

How the data were processed

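RNA of vegetative mycelium was sequenced from stranded poly(A) libraries with paired reads (50 bp each). The submitters' processing notes name HISAT2 2.2.1, featureCounts, Subread and Cuffdiff. The genome build, the strand mode and the settings are not stated in the labels, so reads of overlapping genes cannot be told apart. The authors deposited whole-number counts per gene without normalization, and these were used. Their table also gives 1 FPKM value per strain, which the authors made from all replicates and which was not used. Symbols are those of the closest SwissProt protein (8074 genes), often of another species, and contigs and positions are the table's own.

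Counts were tested with the edgeR 4.0.16 quasi-likelihood test under R 4.3.3 (all 9 libraries, strain as the only term, TMM scaling, low genes dropped by filterByExpr), with Benjamini-Hochberg adjustment over all genes tested and a threshold of 0.05. Log2 CPM used a prior count of 2. With 3 libraries against 3, an exact permutation test of a single gene cannot go below 0.1, so none is given. The test was first run on simulated counts, whose spread was taken from the ΔaslA and MA234.1 libraries and not from ΔaslB. That run therefore cannot show how the test performs at the wider spread of ΔaslB. Alternatives were DESeq2 1.42.0, limma-voom (limma 3.58.1), RLE size factors, unscaled totals, no filter, 10 CPM or more in 3 libraries, the 6 libraries alone, a 1.5-fold threshold, a replicate block, and leaving out 1 library at a time. The other tools without ΔaslB replicate 2 or 3, and the leave-outs among the 6 libraries, were added after seeing the data.

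The comparison, the gene lists (text patterns on the deposited annotation) and the named-gene rule were chosen with earlier results of these data known. Named were the genes with the widest gap between non-overlapping libraries at 5 CPM or more (10 described and 2 undescribed in each direction), the 8 largest changes called without each ΔaslB library, the widest ranges within ΔaslB, members of each list, developmental and nutrient regulators, and genes absent from 1 strain; a selection of these is described, and 1 gene that the rule named is not reported here. The chaperone, cluster and single-library genes outside this rule were chosen after their values were seen. The counts of each replicate pair were set against each other by chi-square, giving 2.45 to 87.9 per degree of freedom within ΔaslA and 110 to 643 within ΔaslB; none agreed within sampling noise. Deviations of same-numbered libraries from their strain means correlated at 0.01, -0.03 and -0.03, so the numbers were not taken to pair the samples. Figures were drawn with matplotlib 3.10.9.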

Additional observations from a re-analysis of the deposited data

How the results depend on the processing

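No gene was called between ΔaslA and ΔaslB with RLE size factors, total counts alone, limma-voom, no filter, the stricter filter, only the 6 libraries or the 1.5-fold threshold. With the replicate block, 0 genes were called (1049 at an unadjusted p under 0.05). The labels do not say whether the replicate numbers pair the samples. DESeq2 called 553. Leaving out single libraries gave 0 to 1282 genes, with 57 without ΔaslB replicate 2 and 1282 without replicate 3, and among the 6 libraries alone 0 to 119. Without ΔaslB replicate 2 the count was 57 in edgeR, 667 in DESeq2, 31 in limma-voom and 0 with only the deletion strains; without replicate 3 it was 1282, 2268, 708 and 119. These last fits have fewer libraries. Under the stricter filter 7263 genes were tested, against 9568. ΔaslB replicates 1, 2 and 3 then lay outside the ΔaslA range at 729, 2514 and 89 genes, against 1137, 3194 and 222. The counts of replicates 1 and 3 thus fell by a larger share than the number of genes tested. Total counts alone moved the median log2 fold change of all genes to -0.11, against -0.02 with TMM.

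Some named genes changed sign. flbA (ATCC64974_61450) gave -0.00692 with RLE factors, -0.00913 in DESeq2, -0.00814 with only the 6 libraries, -0.11 with total counts alone, -0.0907 with the stricter filter, and -0.20 to 0.21 when single libraries were left out. mirB (ATCC64974_47620) gave 0.71 and BNA2 (ATCC64974_39520) 0.14 in limma-voom. When single libraries were left out, mirB ran from -1.10 to 0.70, BNA2 from -1.76 to 0.98, prtT (ATCC64974_81730) from -1.26 to 0.23, tef1 (ATCC64974_107900) from -0.13 to 0.66, KHT2 (ATCC64974_41830) from -2.39 to 0.55, pho-4 (ATCC64974_59160) from -2.52 to 0.25 and CDC15 (ATCC64974_22370) from -0.041 to 1.10, with the change of sign without ΔaslB replicate 2 for prtT, tef1 and BNA2 and without replicate 1 for the others. The cause was not tested.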

Other observations

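Genes at which 1 library of the 9 lay 2-fold or more outside all 8 others were counted after the data were seen. ΔaslB replicate 1 lay above the 8 others at 127 genes and below them at 162, replicate 2 at 30 and 3, and replicate 3 at 2 and 53; ΔaslA replicate 2 lay above at 121 and below at 147. The hexose transporter gene KHT2 (ATCC64974_41830) stood at 120, 63.2 and 114 CPM in ΔaslA and 961, 60.4 and 75 CPM in the 3 ΔaslB libraries, against 43.9 to 48.9 CPM in MA234.1. The phosphate permease gene pho-4 (ATCC64974_59160), a gene that phosphate represses in Neurospora, stood at 3.77, 4.43 and 5.05 CPM in ΔaslA and 45.8, 2.49 and 4.99 CPM in ΔaslB. The efflux carrier gene TOXA (ATCC64974_109800) stood at 3.99, 4.69 and 4.35 CPM in ΔaslA and 53.4, 5.82 and 4.07 CPM in ΔaslB, and a mutanase gene, PCH_Pc12g07500 (ATCC64974_99040), for cutting alpha-1,3-glucan, at 4.59, 1.53 and 4.2 CPM against 82.7, 8.43 and 9.48 CPM. At the mutanase gene ΔaslB replicates 2 and 3 also lay above every ΔaslA library, as replicate 2 did at TOXA. Replicate 1 was still the highest library in all 4.

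The same library was low alone at a gene closest to CDC15 (ATCC64974_22370), a cell division kinase of yeast, at 848, 511 and 854 CPM in ΔaslA and 81.5, 611 and 909 CPM in ΔaslB, against 751 to 810 CPM in MA234.1. The tryptophan-degrading gene BNA2 (ATCC64974_39520) stood at 152, 191 and 149 CPM in ΔaslA and 24.4, 972 and 142 CPM in ΔaslB. Replicate 1 was the lowest, but replicate 2 also lay below every ΔaslA library, at the allergen gene AFUA_2G03830 (ATCC64974_83040). It stood at 94.8, 121 and 97.3 CPM in ΔaslA and 0.577, 18.8 and 96.4 CPM in ΔaslB. ΔaslB replicate 3 was low alone at GFA1 (ATCC64974_75500), for the first step of the hexosamine pathway that feeds chitin synthesis, at 22.6, 12 and 21.5 CPM in ΔaslA and 38.7, 44.8 and 4.16 CPM in ΔaslB. With all libraries edgeR called none of these genes.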
